A study of Mus musculus with 5 samples.

Results

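The 4 genes described here encode the DNA methyltransferase family of the mouse: Dnmt1, Dnmt3a, Dnmt3b and Dnmt3l. They were chosen by name, and each was read over a fixed window of the mm9 genome at the gene. The windows were chromosome 9 at 20711001-20758000 for Dnmt1 (47 kb), chromosome 12 at 3806001-3915000 for Dnmt3a (109 kb), chromosome 2 at 153474001-153514000 for Dnmt3b (40 kb) and chromosome 10 at 77504001-77527000 for Dnmt3l (23 kb). Together they held 219 of the 2440090 bins of 1 kb that carried a read on chromosomes 1 to 19 and X. A flank of 10 kb was added at each end, which brought the bins to 299. Of these, 294 held an input read and 1 held no read in any library. The RefSeq genes of another build, GRCm38, are 52.7 kb (Dnmt1), 112.9 kb (Dnmt3a), 38.3 kb (Dnmt3b) and 21.3 kb (Dnmt3l) long, so the windows of Dnmt1 and Dnmt3a are shorter than those genes.

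DNA methyltransferases put a methyl group on cytosine, mostly where it precedes guanine (CpG), which gives 5-methylcytosine (5mC). Dnmt1 copies methylation to the new strand after replication, while Dnmt3a and Dnmt3b methylate DNA that carried no mark. Dnmt3l has no catalytic activity and stimulates Dnmt3a and Dnmt3b. Tet enzymes oxidise 5mC to 5-hydroxymethylcytosine (5hmC), a mark that embryonic stem cells carry at measurable levels. In such cells the CpG-rich promoters of active genes usually lack 5mC, while the bodies of active genes carry it.

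The libraries were made from mouse embryonic stem cells grown in serum with leukaemia inhibitory factor and no feeder cells. The hMeDIP library (antibody to 5hmC, 18519740 reads on chromosomes 1 to 19 and X), the MeDIP library (antibody to 5mC, 10442811 reads) and the MethylCap eluates at 800 mM NaCl (7507520 reads) and 600 mM NaCl (10462783 reads) were all from E14 cells, as clones of a gene-trap library. MethylCap captures double-stranded methylated DNA with a methyl-CpG binding domain, and more salt is held to release more densely methylated DNA. The input (18676265 reads) was chromatin DNA of E14 cells labelled TNG-A, which carry an EGFP reporter at the Nanog locus, and thus from other cells than the enriched libraries. There was 1 library of each kind, so no test between conditions was possible and no p-value is given. The 95% intervals given here are for read ratios. They cover counting error only: the reads have no molecular identifiers and need not be independent molecules. Copy number of the 4 loci in the lines was not measured.

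The promoter sequences show how the genes differ in CpG content, since methylation is placed mostly at CpGs. RefSeq lists 10 starts for the 4 genes in build GRCm38.p6, each with 250 bases before and 50 after the start. The following 6 were picked to show CpG-rich and CpG-poor starts of the family. The most CpG-rich Dnmt1 start is not among them. Each CpG is in capitals.

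Dnmt1, somatic start, chr9:20952930-20953229, minus strand: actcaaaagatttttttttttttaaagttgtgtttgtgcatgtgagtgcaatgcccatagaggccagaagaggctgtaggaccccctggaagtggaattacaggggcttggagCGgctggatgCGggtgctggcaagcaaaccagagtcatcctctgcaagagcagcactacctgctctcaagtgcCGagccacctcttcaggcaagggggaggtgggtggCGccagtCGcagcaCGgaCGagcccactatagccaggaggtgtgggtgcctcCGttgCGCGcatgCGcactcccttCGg

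Dnmt1, most upstream start, chr9:20959839-20960138, minus strand: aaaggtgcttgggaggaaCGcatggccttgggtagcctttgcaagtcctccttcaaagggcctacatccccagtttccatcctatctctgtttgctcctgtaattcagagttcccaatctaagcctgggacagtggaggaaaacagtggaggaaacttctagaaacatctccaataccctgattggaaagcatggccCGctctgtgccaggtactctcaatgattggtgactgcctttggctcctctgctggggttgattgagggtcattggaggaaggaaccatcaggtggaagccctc

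Dnmt3a, first start, chr12:3806730-3807029, plus strand: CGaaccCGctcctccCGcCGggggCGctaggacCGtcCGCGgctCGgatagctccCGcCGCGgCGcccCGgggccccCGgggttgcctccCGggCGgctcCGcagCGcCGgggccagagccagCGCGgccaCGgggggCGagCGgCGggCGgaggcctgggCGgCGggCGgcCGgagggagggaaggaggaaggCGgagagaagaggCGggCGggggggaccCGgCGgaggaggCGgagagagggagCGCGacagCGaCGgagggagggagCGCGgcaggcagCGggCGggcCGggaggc

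Dnmt3a, internal start, chr12:3891494-3891793, plus strand: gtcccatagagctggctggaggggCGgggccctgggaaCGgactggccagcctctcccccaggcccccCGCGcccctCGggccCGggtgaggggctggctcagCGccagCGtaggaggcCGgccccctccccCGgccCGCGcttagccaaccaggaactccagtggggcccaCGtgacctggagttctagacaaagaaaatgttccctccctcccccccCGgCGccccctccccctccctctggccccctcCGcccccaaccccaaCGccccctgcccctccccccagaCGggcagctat

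Dnmt3b, start, chr2:153649199-153649498, plus strand: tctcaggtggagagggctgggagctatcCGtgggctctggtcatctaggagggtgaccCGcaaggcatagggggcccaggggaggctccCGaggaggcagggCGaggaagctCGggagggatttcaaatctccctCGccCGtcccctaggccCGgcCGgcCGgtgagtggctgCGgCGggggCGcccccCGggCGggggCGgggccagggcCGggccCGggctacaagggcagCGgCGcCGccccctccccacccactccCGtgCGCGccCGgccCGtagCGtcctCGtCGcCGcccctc

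Dnmt3l, first start, chr10:78042037-78042336, plus strand: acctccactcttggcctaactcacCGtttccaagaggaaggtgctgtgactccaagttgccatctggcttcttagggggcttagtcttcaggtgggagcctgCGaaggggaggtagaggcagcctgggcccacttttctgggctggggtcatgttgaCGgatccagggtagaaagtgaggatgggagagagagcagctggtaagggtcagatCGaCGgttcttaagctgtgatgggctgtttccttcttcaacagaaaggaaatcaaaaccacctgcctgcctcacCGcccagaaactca

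The first Dnmt3a start held 46 CpGs in its 300 bases, more than in 98.4% of 32851 RefSeq promoters of that length, whose median was 7. The Dnmt3b start held 30 CpGs. The somatic Dnmt1 start held 12, and a further Dnmt1 start just downstream of it held 33. The most upstream Dnmt1 start, 6.91 kb before the somatic one, held 2. The 3 Dnmt3l starts held 6, 4 and 3 CpGs. The Dnmt3 cofactor thus stood on the CpG-poor side of the median, and the catalytic genes had at least 1 CpG-rich start each. The GC box GGGCGG, searched on both strands, was found in 7 of the 10 promoters. It occurred 6, 7 and 2 times in the 3 Dnmt3a promoters (the last being the internal one), 4 times in Dnmt3b, 2 times at the CpG-rich Dnmt1 start, and 1 and 2 times in the first 2 Dnmt3l promoters. It was present in 35.7% of all promoters. The E-box CACGTG, which reads the same on both strands and holds a CpG, was found once in the internal Dnmt3a promoter and once in a Dnmt3l promoter 7.55 kb downstream of the first, and in 7.15% of all promoters.

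Over the gene windows, all 4 genes were above input in all 4 enriched libraries, except that Dnmt3b in MeDIP was at 1.06 (0.912 to 1.22) once the flanks were included. Dnmt1, the maintenance enzyme, held 1023 hMeDIP reads, 716 MeDIP reads, 751 reads at 800 mM and 979 at 600 mM, against 383 input reads. Scaled to library size as RPM (reads per 1000000 used reads), this was 2.69-fold over input with the 5hmC antibody (2.39 to 3.04), 3.34-fold with the 5mC antibody (2.95 to 3.79), 4.88-fold at 800 mM (4.31 to 5.53) and 4.56-fold at 600 mM (4.05 to 5.15). The median of autosomal tiles of the same length was 0.839, 0.845, 0.690 and 0.740 in these libraries. In each of them the 90th percentile of the tiles, 1.91 to 2.44, lay below the Dnmt1 value. Dnmt1 had the highest signal over input of the 4 genes with the 5mC antibody and in the 600 mM eluate. These are read ratios, and neither the methylation level nor the CpG content of the windows was measured.

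Dnmt3a, a de novo enzyme, held 1708 hMeDIP reads, 730 MeDIP reads, 688 at 800 mM and 885 at 600 mM, against 726 input reads. Its ratios to input were 2.37 (2.17 to 2.59) with the 5hmC antibody, 1.80 (1.62 to 2.00) with the 5mC antibody, 2.36 (2.12 to 2.62) at 800 mM and 2.18 (1.97 to 2.40) at 600 mM. The 5hmC value was above the 90th percentile of 109 kb tiles (1.84), whereas the 5mC antibody value was below it (1.93).

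Dnmt3b, the other de novo enzyme, held 463 hMeDIP reads, 243 MeDIP reads, 894 at 800 mM and 347 at 600 mM, against 328 input reads. It had the lowest ratios of the family with both antibodies, 1.42 (1.23 to 1.64) for 5hmC and 1.33 (1.12 to 1.57) for 5mC. Its 600 mM ratio was 1.89 (1.62 to 2.20). The 800 mM ratio of 6.78 (5.97 to 7.72) was set by the last 2 kb of the window, without which it was 1.95.

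Dnmt3l, the cofactor, held 433 hMeDIP reads, 134 MeDIP reads, 138 at 800 mM and 180 at 600 mM, against 138 input reads. Its 5hmC antibody ratio, 3.16 (2.61 to 3.86), was the highest value of the family, while its 5mC antibody ratio was 1.74 (1.36 to 2.22). The eluates stood at 2.49 (1.95 to 3.17) at 800 mM and 2.33 (1.85 to 2.93) at 600 mM.

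**Figure D1:**
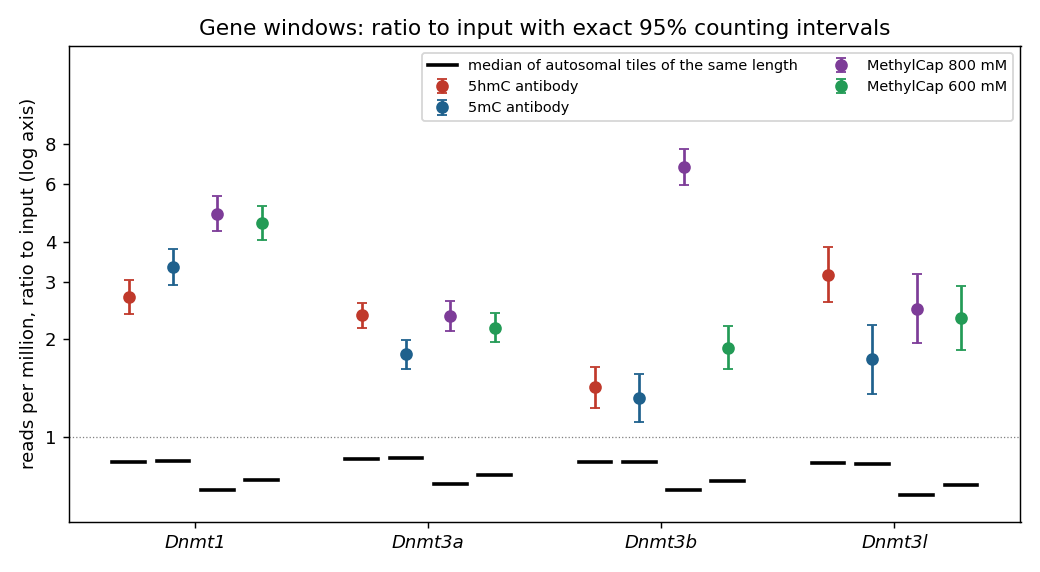
Ratio to input of RPM over each gene window, on a log axis, for the 5hmC antibody, the 5mC antibody and the MethylCap eluates at 800 and 600 mM NaCl, with 1 library each. Bars are exact 95% counting intervals and black lines the median of autosomal tiles of the same length; every gene value lies above its line, and the 800 mM value of Dnmt3b, 6.78, rests on 2 bins.

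Not all of these orders exceeded counting error. For 5hmC over input, Dnmt3l was 1.17-fold of Dnmt1 (0.938 to 1.47) and Dnmt1 was 1.14-fold of Dnmt3a (0.981 to 1.31), so these neighbours did not differ beyond their intervals. Dnmt3a was 1.67-fold of Dnmt3b (1.41 to 1.97). For 5mC over input, Dnmt1 was 1.86-fold of Dnmt3a (1.58 to 2.18). Dnmt3a was 1.04-fold of Dnmt3l (0.799 to 1.34), and Dnmt3l was 1.31-fold of Dnmt3b (0.981 to 1.75), intervals that include no difference. The surroundings, taken as the 1 Mb around each gene without the gene and its flanks, differed as well. Dnmt1 stood above its surroundings in every library, for example 3.34-fold against 1.31-fold over input with the 5mC antibody. Dnmt3a stood above its own with 2.37-fold against 1.13-fold for 5hmC. Dnmt3b was level with its surroundings for both antibodies (1.42-fold against 1.46-fold for 5hmC, 1.33-fold against 1.38-fold for 5mC). Dnmt3l was above its surroundings for 5hmC (3.16-fold against 1.89-fold), and its 5mC antibody value was 1.74-fold against 2.06-fold there, with overlapping intervals.

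To compare the antibody signals without the input, the 5hmC antibody was set directly against the 5mC antibody. This compares reads, and the amounts of the marks themselves were not measured. The ratio of RPM was 1.82 over Dnmt3l (1.50 to 2.23), 1.32 over Dnmt3a (1.21 to 1.44), 1.07 over Dnmt3b (0.918 to 1.26) and 0.806 over Dnmt1 (0.731 to 0.888). The steps in this order exceeded counting error over the windows: Dnmt3l was 1.38-fold of Dnmt3a (1.12 to 1.71), Dnmt3a 1.23-fold of Dnmt3b (1.03 to 1.47) and Dnmt3b 1.33-fold of Dnmt1 (1.11 to 1.60). With flanks included, the step from Dnmt3a to Dnmt3b was 1.08-fold (0.918 to 1.27) and no longer exceeded it, while the other 2 did. The median of autosomal tiles was 1.01 for each window length. Dnmt3l lay above the 90th percentile of its tiles (1.55), and Dnmt1 lay between the 10th percentile (0.725) and the median. Dnmt3a was about level with the 90th percentile of its tiles (1.31). With flanks included, Dnmt3a was below it, at 1.27 against 1.30. Over the windows, the intervals of Dnmt3l and Dnmt3a both include these percentiles. In single bins of the 4 windows, 28 had a 5hmC signal of at least 2-fold the 5mC signal (12.8%, where 3.69% of all bins were) and 12 had one of at most 0.5-fold (5.48%, where 3.19% of all bins were). Of the 28, 6 lay among the 23 bins of Dnmt3l (26.1%), 14 among the 109 of Dnmt3a (12.8%), 5 among the 47 of Dnmt1 (10.6%) and 3 among the 40 of Dnmt3b (7.50%). Of the 12, 7 lay in Dnmt1 (14.9%), 3 in Dnmt3b (7.50%), 2 in Dnmt3a (1.83%) and 0 in Dnmt3l.

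Bins were called enriched at a ratio to input of 3 or more, with 0.5 RPM added to both sides. The 219 bins of the windows held 17 enriched with the 5hmC antibody (7.76%, against 1.93% of all bins), 17 with the 5mC antibody (7.76%, against 2.50%), 41 at 800 mM (18.7%, against 4.27%) and 27 at 600 mM (12.3%, against 3.33%). By count, Dnmt1 held the most in each library: 7 of the 5hmC bins, 10 of the 5mC bins, 20 at 800 mM and 18 at 600 mM. These were 14.9%, 21.3%, 42.6% and 38.3% of its 47 bins. Dnmt3a had 6, 5, 12 and 5 in the same order, Dnmt3l had 4, 2, 2 and 2, and Dnmt3b had 0, 0, 7 and 2. The windows differ in length, and as shares these were 5.50%, 4.59%, 11.0% and 4.59% in Dnmt3a. Dnmt3l had 17.4%, 8.70%, 8.70% and 8.70%, and Dnmt3b 0%, 0%, 17.5% and 5.00%. By share, Dnmt3l was thus highest for 5hmC, and Dnmt1 in the other libraries. A total of 7 bins were enriched in all 4 libraries, where 0.330% of all bins were, 6 of them in Dnmt1 and 1 in Dnmt3l. The same 7 bins were those enriched with both antibodies, where 0.866% of all bins were.

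The start of transcription was then compared with the body. The promoter end was taken as 2 kb inside and 1 kb outside the window where transcription starts, and the body as the rest of the window. At Dnmt1 this stretch held 18 hMeDIP reads, 6 MeDIP reads, 3 at 800 mM and 2 at 600 mM, against 37 input reads. Each enriched library was below input there, at 0.491-fold (0.263 to 0.884) for 5hmC, 0.290-fold (0.10 to 0.693) for 5mC, 0.202-fold (0.0398 to 0.637) at 800 mM and 0.0965-fold (0.0113 to 0.374) at 600 mM. The 5hmC value was 0.786-fold (0.523 to 1.18) with 4 kb in place of 2 kb inside the window, and 0.585-fold (0.314 to 1.05) with the median ratio set to 1, so its interval did not exclude input in either case. With 4 kb the eluates were at 0.506-fold (0.247 to 0.951) at 800 mM and 0.575-fold (0.324 to 0.978) at 600 mM, still below input. Relative to the Dnmt1 body, the promoter end was at 0.173 with the 5hmC antibody (0.0972 to 0.307), 0.0822 with the 5mC antibody (0.0344 to 0.197), 0.0391 at 800 mM (0.0120 to 0.128) and 0.0200 at 600 mM (0.0048 to 0.0834).

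The promoter end of Dnmt3b held 40 hMeDIP reads, 5 MeDIP reads, 8 at 800 mM and 11 at 600 mM, against 29 input reads. The 5mC antibody was below input (0.308-fold, 0.0932 to 0.806), while the 5hmC antibody was at 1.39-fold (0.841 to 2.33). The 5mC value rested on those 5 reads: with read midpoints shifted by 100 bases it was 0.555-fold (0.231 to 1.20), which no longer excludes input. The promoter end was at 0.223 of the body in MeDIP (0.0849 to 0.584; 0.401 with the shift, 0.186 to 0.864) and at 0.976 of it in hMeDIP (0.592 to 1.61). Directly, the 5hmC antibody was 4.51-fold of the 5mC antibody there (1.78 to 14.6), and 2.51-fold (1.20 to 5.87) with the shift. The 90th percentile of 3 kb tiles was 2.54, between these 2 values. The low 5mC signal reached far upstream: from 10 to 1 kb before the promoter end, Dnmt3b held 16 MeDIP reads and 70 hMeDIP reads against 96 input reads. Commd7 is the gene before Dnmt3b in RefSeq's GRCm38 order.

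The promoter end of Dnmt3a held 36 hMeDIP reads, 11 MeDIP reads, 5 at 800 mM and 7 at 600 mM, against 19 input reads. It was lower than the body in the eluates, at 0.276 (0.102 to 0.743) at 800 mM and 0.2997 (0.125 to 0.717) at 600 mM. With the antibodies it was at 0.802 (0.457 to 1.41) for 5hmC and 0.573 (0.271 to 1.21) for 5mC, and neither interval excludes the level of the body. With 4 kb inside the window the 5mC value was 0.332 (0.171 to 0.645), below the body. Most reads of this promoter end lay in the 1 kb outside the window. That bin held 30 hMeDIP reads, 9 MeDIP reads, 4 at 800 mM, 7 at 600 mM and 13 input reads. The bin from 1 to 2 kb inside the window held no input read, and 1 hMeDIP read was its only read. This bin was thus almost uncovered in every library. Where the CpG-rich start lies in mm9 was not checked.

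Dnmt3l went the other way at the promoter end as drawn here. Its promoter end held 79 hMeDIP reads, 29 MeDIP reads, 22 at 800 mM and 36 at 600 mM, against 11 input reads. This was 7.24-fold over input for 5hmC (3.84 to 15.1), 4.72-fold for 5mC (2.29 to 10.5), 4.98-fold at 800 mM (2.31 to 11.4) and 5.84-fold at 600 mM (2.91 to 12.7). Relative to the body the values were 2.66 (1.37 to 5.16), 3.02 (1.45 to 6.32), 2.25 (1.05 to 4.84) and 2.92 (1.43 to 5.97). For 5hmC the excess lay in the first 2 bins of the window, and for 5mC in the first bin and the one before it. The first 2 bins held 44 and 30 hMeDIP reads, 16 and 2 MeDIP reads, 12 and 8 at 800 mM, 20 and 11 at 600 mM, and 2 and 3 input reads. The bin before them held 5 hMeDIP reads, 11 MeDIP reads, 2 at 800 mM, 5 at 600 mM and 6 input reads. With reads at 0 in column 4 and with the 100-base shift, the 800 mM value relative to the body was 1.90 (0.871 to 4.14) and 1.89 (0.913 to 3.93), so its interval then included the level of the body. With 4 kb in place of 2 kb inside the window, the 800 mM value relative to the body was 0.945 and the others 1.18 to 1.33, so the excess depended on how the promoter end was drawn, and it rested on few input reads. In RefSeq's GRCm38, the Aire gene overlaps the start of Dnmt3l on the other strand, and its own promoter held 16 CpGs in 300 bases. The mm9 positions of both starts were not checked, so which of them the signal lies at was not tested. RefSeq lists a further Dnmt3l start 7.55 kb downstream of the first in GRCm38, farther than the promoter end reaches. From 2 to 10 kb inside the window, the 5mC antibody was at 0.495-fold of input (0.2765 to 0.845). Which Dnmt3l start these cells use was not measured.

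**Figure D2:**
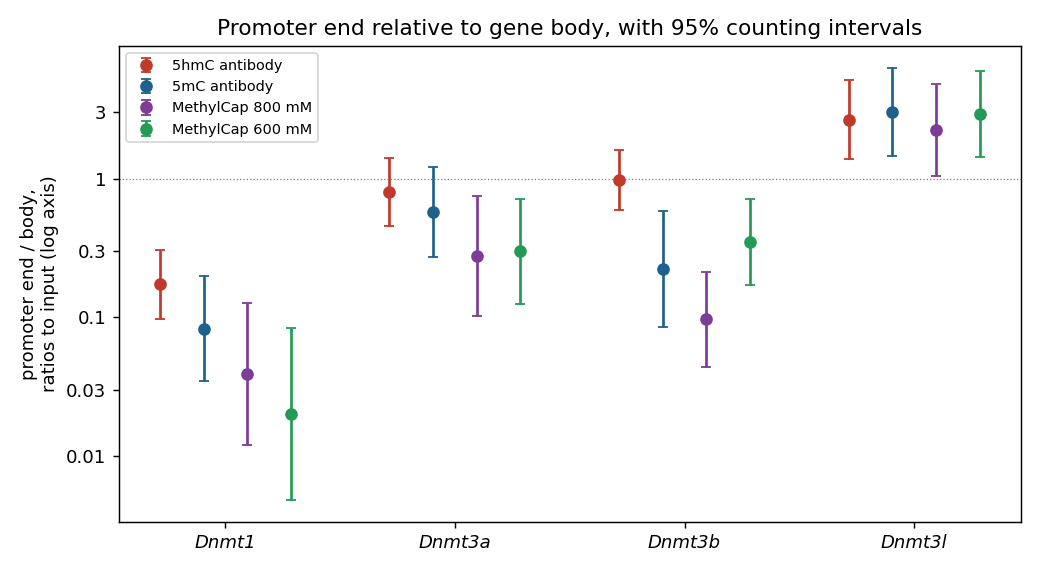
Ratio to input at the promoter end (2 kb inside and 1 kb outside the window) divided by the ratio to input over the body, on a log axis, for the 4 genes in the 4 enriched libraries, 1 library each. Bars are 95% counting intervals; Dnmt1 lies below 1 in all 4 libraries, from 0.0200 to 0.173, and Dnmt3l above 1, from 2.25 to 3.02.

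Along Dnmt1, the ratio of the antibody signals changed with distance from the start. The segments used here were chosen after the values were seen. From 2 to 10 kb inside the gene there were 160 hMeDIP reads and 17 MeDIP reads against 81 input reads, so that 5hmC was 1.99-fold over input (1.52 to 2.64) and 5mC was 0.375-fold (0.209 to 0.639). The 5hmC antibody was 5.31-fold of the 5mC antibody there (3.21 to 9.34). From 10 kb on there were 859 hMeDIP and 697 MeDIP reads against 281 input reads, and the antibody ratio was 0.695 (0.628 to 0.769). The ratio was thus 7.64-fold higher in the 2 to 10 kb segment (4.59 to 12.7) than in the rest of the body. The bin 7 to 8 kb inside, at 20750001-20751000, held 38 hMeDIP reads, no MeDIP read, 12 reads at 800 mM and 9 at 600 mM, and 14 input reads. The exact lower bound of the antibody ratio there was 5.53, and the ratio was 7.14 against a floor of 3 MeDIP reads.

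The same segments of Dnmt3b gave 86 hMeDIP and 22 MeDIP reads from 2 to 10 kb, an antibody ratio of 2.20 (1.37 to 3.70), against 0.911 (0.767 to 1.08) from 10 kb on. In Dnmt3l the antibody ratio was 2.60 (1.55 to 4.60) from 2 to 10 kb and 1.59 (1.26 to 2.02) from 10 kb on, and the step between them, 1.64-fold (0.936 to 2.86), did not exceed counting error. Dnmt3a showed no step, with 1.35 (0.981 to 1.88) from 2 to 10 kb and 1.32 (1.20 to 1.44) from 10 kb on. From 2 to 10 kb, hMeDIP thus exceeded MeDIP beyond counting error in Dnmt1, Dnmt3b and Dnmt3l, and beyond 10 kb in Dnmt3a and Dnmt3l. Against input, 5hmC from 2 to 10 kb was 1.22-fold in Dnmt3b (0.882 to 1.70) and 1.29-fold in Dnmt3l (0.920 to 1.81). Neither interval excludes input. The 5mC antibody was below input there, at 0.554-fold in Dnmt3b (0.327 to 0.905) and 0.495-fold in Dnmt3l (0.2765 to 0.845).

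**Figure D3:**
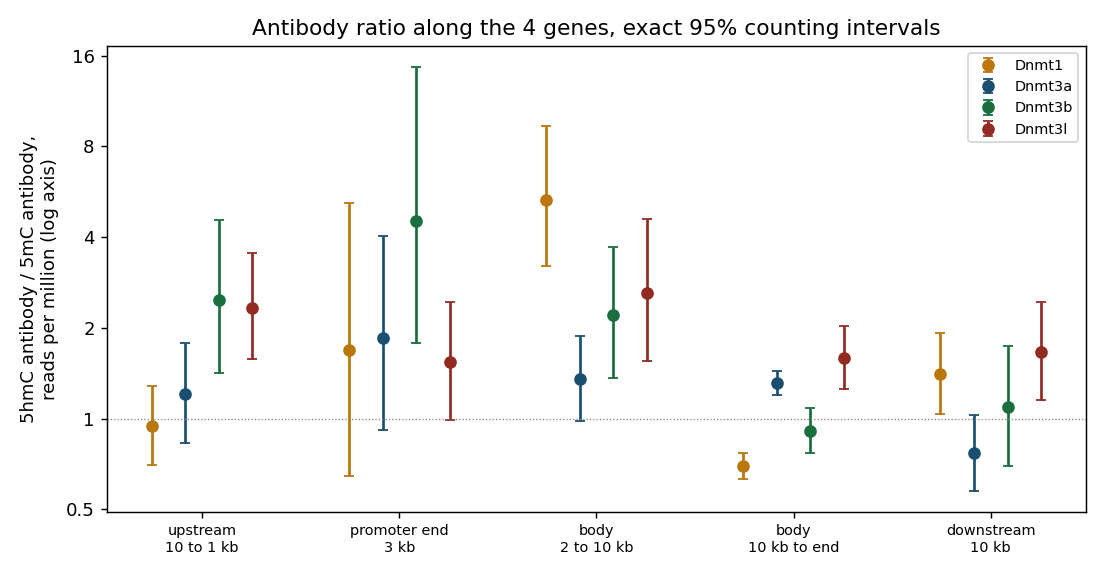
RPM with the 5hmC antibody divided by those with the 5mC antibody, on a log axis, in 5 segments of each gene ordered by distance from the promoter end, 1 library each, with exact 95% counting intervals. Dnmt1 reaches 5.31 from 2 to 10 kb inside the gene and 0.695 beyond 10 kb, while Dnmt3a stays at 1.35 and 1.32.

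The body of Dnmt1 beyond 10 kb carried high 5mC signal, at 4.44-fold over input (3.86 to 5.11) with the antibody, 6.22-fold at 800 mM (5.41 to 7.17) and 5.79-fold at 600 mM (5.06 to 6.65), and 3.08-fold for 5hmC (2.69 to 3.54). Its last 6 kb were also chosen after the values were seen. They held 130 hMeDIP, 128 MeDIP, 203 and 270 reads at 800 and 600 mM, and 31 input reads. There the eluates reached 16.3-fold (11.1 to 24.6) at 800 mM and 15.5-fold (10.7 to 23.3) at 600 mM. Beyond the 3' end, 10 kb of flank were at 1.11-fold with the 5mC antibody (0.795 to 1.55) and 1.32-fold at 800 mM (0.924 to 1.87). Among bins with at least 5 input reads, the highest MeDIP ratio lay 11 kb inside the gene, at 20746001-20747000, with 40 hMeDIP, 61 MeDIP, 19 and 25 eluate reads at 800 and 600 mM, and 7 input reads (7.25-fold for 5mC, 3.04-fold for 5hmC). The lowest antibody ratio lay 13 kb inside, at 20744001-20745000, with 17 hMeDIP and 39 MeDIP reads (0.335-fold, or 0.130 to 0.445 for the ratio without the added 0.5 RPM). With the same minimum of 5 input reads, the highest hMeDIP ratio was outside the window, 2 kb past its 3' end at 20708001-20709000. That bin held 53 hMeDIP and 15 MeDIP reads against 8 input reads (3.62-fold for 5hmC). Without the minimum, the highest hMeDIP ratio of the locus was inside the window, 6.07-fold at 20731001-20732000 with 3 input reads.

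**Figure D4:**
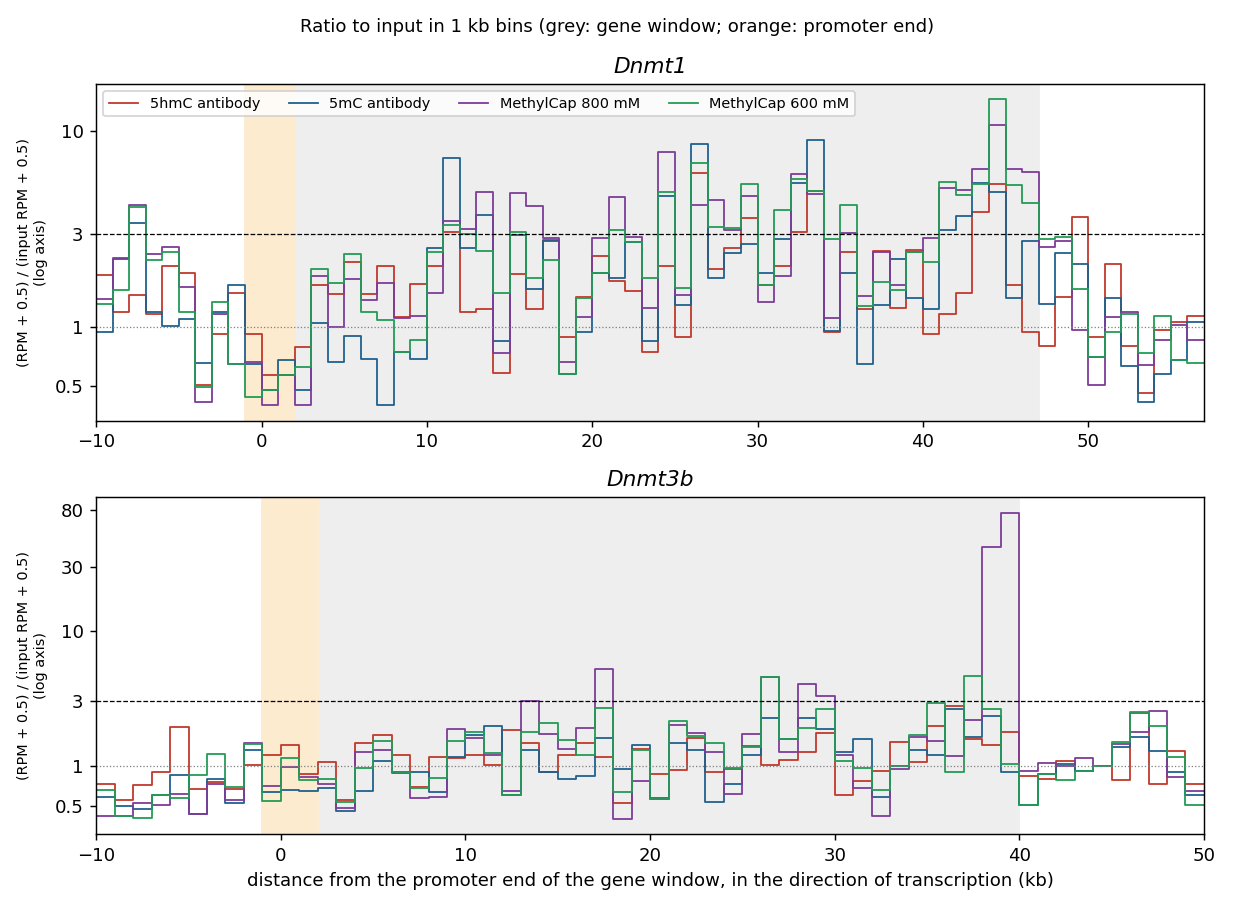
Ratio to input, (RPM + 0.5)/(input RPM + 0.5), in 1 kb bins along Dnmt1 and Dnmt3b with 10 kb flanks, on a log axis, by distance from the promoter end in the direction of transcription, 1 library each. The dashed line marks the 3-fold threshold; all 4 libraries are under 1 at the promoter end of Dnmt1, and the last 2 bins of Dnmt3b reach 42.3 and 76.5 at 800 mM alone.

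The last 2 bins of Dnmt3b stood apart from the rest of its body. At 153512001-153514000 there were 24 hMeDIP and 13 MeDIP reads, 643 reads at 800 mM, 16 at 600 mM and 8 input reads. The last bin alone held 437 reads at 800 mM and 3 at 600 mM. Of all bins, 0.221% had an 800 mM signal of 3-fold the 600 mM signal or more, and 0.111% had the reverse. Over the window of Dnmt3b the 800 mM eluate was 3.59-fold of the 600 mM eluate (3.17 to 4.08), and without these 2 bins it was 1.06-fold. The other windows were at 1.07 (Dnmt1), 1.08 (Dnmt3a) and 1.07 (Dnmt3l). The 643 reads occupied 590 distinct positions and strands, with 95% of them within 805 bases. Reads on the minus strand had their median midpoint 44 bases before those on the plus strand. Of the 643 reads, 131 carried a 1 in the file's column 4, where 8.22% of all reads at 800 mM did. The sources used here do not explain that column. Without such reads the 800 to 600 mM ratio of the window was 3.12. Dnmt3a held 1 bin of this kind, 102 kb inside the gene at 3908001-3909000, with 58 reads at 800 mM, 8 at 600 mM, 6 hMeDIP, 2 MeDIP and 6 input reads. Among Dnmt3b bins with at least 5 input reads, the highest ratio for both antibodies lay 36 kb inside, at 153510001-153511000. That bin held 36 hMeDIP and 19 MeDIP reads against 7 input reads (2.79-fold and 2.65-fold), and 4 and 3 reads at 800 and 600 mM. The lowest antibody ratio of Dnmt3b, 0.514, and the highest, 3.01, lay in adjoining bins, 11 and 12 kb inside, with 11 and 24 hMeDIP reads and 17 and 1 MeDIP reads.

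Within Dnmt3a, signal was spread over the body in single bins. Among bins with at least 5 input reads, the highest 5hmC ratio lay 99 kb inside, at 3905001-3906000. That bin held 63 hMeDIP and 9 MeDIP reads, 6 and 10 reads at 800 and 600 mM, and 9 input reads (3.97-fold for 5hmC, 1.39-fold for 5mC). Under the same limit, the highest 5mC antibody ratio lay 106 kb inside, at 3912001-3913000. That bin held 30 hMeDIP and 32 MeDIP reads against 7 input reads (4.07-fold for 5mC, 2.42-fold for 5hmC). Some bins with fewer input reads were higher. For 5hmC, the bin 62 kb inside, with 2 input reads, was at 4.915-fold. For 5mC, the bin 13 kb inside, with 4 input reads, was at 5.39-fold. Among bins with at least 5 input reads, a bin 95 kb inside led at 600 mM, with 44 reads there, 13 at 800 mM and 13 MeDIP reads. The highest antibody ratio lay 17 kb inside, with 27 hMeDIP reads and 1 MeDIP read. The lowest, 0.308, lay 2 kb past the 3' end, with 10 hMeDIP and 30 MeDIP reads and with 28 and 46 reads at 800 and 600 mM.

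Dnmt3a has a shorter isoform, Dnmt3a2, which starts from an internal promoter and predominates in embryonic stem cells. RefSeq places its internal start, whose sequence with 18 CpGs is given above, 84.8 kb downstream of the first one in GRCm38. No position was carried over from that build, and whether the distance is the same in mm9 was not checked. In mm9, the bins from 84 to 86 kb inside the window held 6 hMeDIP reads, 1 MeDIP read, 1 read in each eluate and 15 input reads. The wider stretch from 79 to 87 kb, chosen after the values were seen, held 76 hMeDIP, 16 MeDIP, 6 and 10 eluate reads at 800 and 600 mM, and 65 input reads. It was at 1.18-fold for 5hmC (0.836 to 1.67), 0.440-fold for 5mC (0.238 to 0.770), 0.230-fold at 800 mM (0.0813 to 0.527) and 0.275-fold at 600 mM (0.126 to 0.538), where the whole body was above input in each library. A shorter low stretch, chosen in the same way, lay from 69 to 73 kb. It held 33 hMeDIP, 10 MeDIP, 2 and 4 eluate reads at 800 and 600 mM, and 40 input reads.

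Among Dnmt3l bins with at least 5 input reads, the 5hmC ratio was highest 13 kb inside the window, at 77517001-77518000. That bin held 54 hMeDIP and 8 MeDIP reads, 8 and 9 reads at 800 and 600 mM, and 10 input reads (3.30-fold for 5hmC, 1.22-fold for 5mC). The highest antibody ratio lay 10 kb inside, at 77514001-77515000, with 41 hMeDIP and 3 MeDIP reads and 3 input reads (3.45-fold). For 5hmC over input this bin, below that limit, was higher at 4.11-fold. Next to it, 11 kb inside, were 22 hMeDIP reads and no MeDIP read, an antibody ratio with an exact lower bound of 3.09, and of 4.14 against the floor of 3 MeDIP reads. Among bins with at least 5 input reads, 1 bin 16 kb inside, at 77520001-77521000, led in MeDIP and at 800 mM. It held 30 hMeDIP, 34 MeDIP, 25 and 28 eluate reads at 800 and 600 mM, and 5 input reads. It also had the lowest antibody ratio of the locus, 0.564 (0.294 to 0.838 for the ratio without the added 0.5 RPM). RefSeq places further Dnmt3l starts 7.55 and 13.1 kb downstream of the first in GRCm38. The bins 6 to 8 kb inside the mm9 window were low with both antibodies and at 600 mM. They held 5 and 4 hMeDIP reads, 1 and 1 MeDIP reads, 1 and 6 at 800 mM and 0 and 0 at 600 mM, against 12 and 8 input reads. Whether a start lies there in mm9 was not checked.

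**Figure D5:**
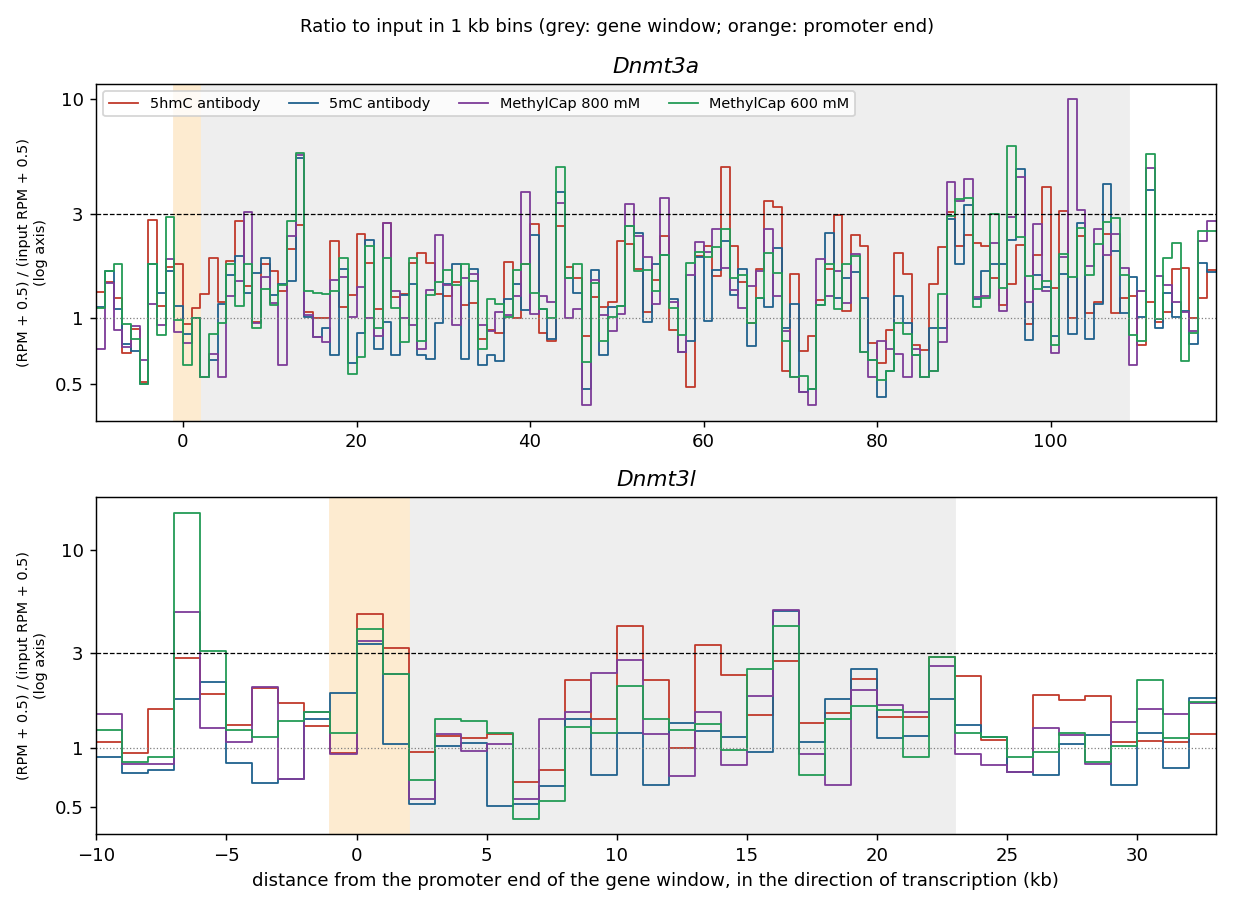
Ratio to input, (RPM + 0.5)/(input RPM + 0.5), in 1 kb bins along Dnmt3a and Dnmt3l with 10 kb flanks, on a log axis, by distance from the promoter end in the direction of transcription, 1 library each. The dashed line marks the 3-fold threshold; Dnmt3a is low in the eluates from 79 to 87 kb, and the first bin of Dnmt3l reaches 4.74 with the 5hmC antibody.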

How the data were processed

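Single libraries of MeDIP, hMeDIP, MethylCap and input were used as 35 base reads, 1 per line. The submitters' processing notes name BWA 0.5.8 and the mm9 build. Column 5 of the deposited files is a read count, 1 in every line, and column 4 (0 or 1, other) is not explained in the sources used here. A 1 in column 4 was carried by 8.38% of input reads, 8.22% of reads at 800 mM and 7.88% at 600 mM. It was carried by 0 reads of either antibody library. Reads at 1 position and strand numbered at most 1 in the antibody and input libraries and at most 2 in the eluates, which caps dense signals.

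Reads were assigned by midpoint to 1 kb bins and scaled to the reads (RPM) on chromosomes 1 to 19 and X. Intervals are exact (Clopper-Pearson on the conditional binomial); those of ratios of ratios use summed log-scale counting variances. Autosomal tiles needed at least 3 input reads per kb. Per gene and library, the bin with the highest ratio among bins with at least 5 input reads was named, and the highest and lowest antibody ratio among bins with at least 20 antibody reads. Members, windows and lists were chosen with earlier results of these data known. Other genes of the pathway were not located in mm9 and are not analysed here. Counting, intervals and calls were checked on simulated data (Python 3.11.15, numpy 2.4.6, scipy 1.17.1, pandas 2.3.3).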

Additional observations from a re-analysis of the deposited data

How the results depend on the processing

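No paired analysis was possible because each group held 1 library. Of 361 recomputed values of 73 results, 306 stayed within their counting interval (for counts of bins, within 1.5 times), 54 moved further and 1 turned its direction. These intervals are wide, so a value within one can still change its side of 1. Among 67 regional ratios, the interval changed side or the value moved by over 1.5 times for 0 with at most 1 read per position and strand, 4 with midpoints shifted by 100 bases and 2 with reads at 0 in column 4; for 24 of 36 this was so with 4 kb inside as promoter end. Part of the 306 values could not have moved. The antibody and input libraries already held at most 1 read per position and strand, so that setting could change only results of the eluates. Neither antibody library held a read with 1 in column 4, so that setting could not change the direct antibody ratios. Setting the median ratio to 1 cannot change values relative to the body. With reads at 0 in column 4, the 800 to 600 mM ratio of Dnmt3b was 3.12.

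With the median ratio to input set to 1, the ratios were 3.21, 4.01, 6.93 and 6.03 for Dnmt1 (hMeDIP, MeDIP, 800 mM, 600 mM), 2.83, 2.16, 3.35 and 2.88 for Dnmt3a, 1.70, 1.59, 9.63 and 2.50 for Dnmt3b, and 3.53 at 800 mM and 3.08 at 600 mM for Dnmt3l. Enriched bins then numbered 27 (hMeDIP), 26 (MeDIP) and 47 (600 mM). With flanks in the window, Dnmt1 was at 2.36, 2.72, 3.90 and 3.66, Dnmt3b at 1.06 (MeDIP), 4.74 (800 mM) and 1.50 (600 mM), and Dnmt3l at 2.97 (600 mM).

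With 4 kb inside as promoter end, the value relative to the body was 0.114 for Dnmt1 at 600 mM. For Dnmt3l it was 1.18 (hMeDIP), 1.22 (MeDIP), 0.945 (800 mM, turned) and 1.33 (600 mM). Without the last 2 kb of Dnmt3b, chosen after seeing the data, its 800 mM ratio was 1.95, its promoter end relative to the body 0.340 and its 800 to 600 mM ratio 1.06.

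Enriched bins in hMeDIP, MeDIP, 800 mM and 600 mM numbered 56, 46, 69 and 59 with a pseudocount of 0.1, 59, 43, 65 and 59 at a threshold of 2-fold, and 7, 8, 26 and 16 with at least 5 input reads. Bins higher and lower with the 5hmC antibody numbered 65 and 25 with that pseudocount, and 7 and 0 at 3-fold. The causes were not tested. Input depth, with a median of 7 reads per bin, limits single bins.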

Other observations

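The flanks of Dnmt3l held the strongest single bin of the 600 mM eluate among the 4 loci. Between 7 and 6 kb before the promoter end, at 77497001-77498000 on chromosome 10, there were 28 reads at 800 mM and 136 at 600 mM, with 37 hMeDIP, 11 MeDIP and 7 input reads. The ratio to input was 2.86 with the 5hmC antibody, 1.78 with the 5mC antibody, 4.83 at 800 mM and 15.4 at 600 mM. The 136 reads occupied 133 distinct positions and strands, 95% of them within 479 bases, and the median midpoint of the minus strand lay 225 bases after that of the plus strand. From 10 to 1 kb before the promoter end of Dnmt3l, the 800 mM eluate was at 0.439 of the 600 mM eluate (0.320 to 0.594).

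The flank before Dnmt1 was above input in all 4 libraries, with 119 hMeDIP, 71 MeDIP, 71 and 87 eluate reads at 800 and 600 mM, and 63 input reads from 10 to 1 kb before the promoter end. A bin from 8 to 7 kb before it held 13 hMeDIP and 24 MeDIP reads, 22 and 30 reads at 800 and 600 mM, and 6 input reads.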
